A study of Homo sapiens with 8 samples.

Results

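The response of IGR-N91 aggregates to medium conditioned by embryonic day 8 chick sympathetic ganglia (E8-cSGcm) was measured by bulk RNA-seq against control medium, with 2 libraries in each group. These 4 of the 8 libraries of the series were taken by their labels, and 16680 of the 60676 gene identifiers in the count table had enough reads to be tested. IGR-N91 is a human neuroblastoma (NB) cell line, so all libraries come from 1 line. The cells were kept as aggregates in hanging drops, either in control medium or in E8-cSGcm, which was complete serum-containing medium left on dissected chick ganglia embedded in agarose. The labels' protocol has the cells in the medium for 20 h, the design text for 24 h. The control medium is described in the study as one in which no tissue had been kept. The remaining libraries were exposed to medium from chick dorsal root ganglia of the same age (E8-cDRGcm) or from mouse embryo sympathetic ganglia (E15.5-mSGcm). Each of these groups had 2 libraries. They also entered the filter, the scaling and the fit, so p-values against control medium rest on the spread in all 8 libraries. Their own values are used below only for comparison with E8-cSGcm.

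NB arises from the sympathoadrenal lineage of the neural crest, whose cells make noradrenaline under the control of transcription factors such as HAND2 and GATA2 or GATA3. Sympathetic ganglia lie where such tumors form, and medium left on a tissue gains what the tissue secretes and loses what it consumes. A cell that runs short of an amino acid, or meets other forms of translational stress, phosphorylates eIF2, translates the transcription factor ATF4 and raises genes for amino acid synthesis, amino acid transport and tRNA charging, a program called the integrated stress response.

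The 4 libraries held 12286211 to 15060744 counts, so that 3 counts corresponded to 0.197 to 0.241 CPM (the counts of a gene scaled to library size), a floor that covers counting error only. Levels below are CPM after TMM scaling. Counts of libraries of 1 group differed beyond sampling noise (chi-square 2.64 for each gene in control medium, 3.11 in E8-cSGcm), and nothing in the labels says that they came from separate cultures, so p-values measure the spread between libraries, which may be technical. An exact permutation test of 2 libraries against 2 cannot go below p = 0.333, so tests rest on the spread shared across genes. The libraries carried 11 of 12 markers of sympathoadrenal NB, among them MYCN, GATA2 and HAND2, and CHGA had 0 counts in all 4. Markers of erythroid cells and macrophages stayed under 10 counts each, the Schwann cell markers SOX10 and FOXD3 were at 0 with a summed list level of 49.6 to 50.1 CPM in control medium and 36.6 to 43.0 CPM in E8-cSGcm, mostly PMP22, and 8 of 8 fibroblast markers had reads, with a summed level of 648 to 658 CPM in control medium and 662 to 664 CPM in E8-cSGcm. In bulk RNA, a change in the share of a cell type and a change in RNA per cell cannot be told apart.

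Transcripts were called when edgeR's quasi-likelihood test gave an adjusted p under 0.05 and the fold change was 1.5 or more. On this rule 789 transcripts (4.73% of those tested) were upregulated and 644 (3.86%) downregulated in E8-cSGcm, 1433 (8.59%) in all. Both E8-cSGcm libraries lay above both control libraries for 788 of the upregulated transcripts, and below them for 643 of the downregulated ones. The calls were made on these same libraries, so such separation largely follows from the calls and is no separate support. Changes were mostly small, with a median log2 fold change of 0.88 among the upregulated and -0.87 among the downregulated transcripts, and 555 changed at least 2-fold. The median over all tested genes was 0.010, with quartiles of -0.21 and 0.22.

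By level, of 3351 genes with a mean of 1 to 5 CPM, 289 rose and 198 fell, and of 2456 genes at 100 CPM or more, 32 rose and 61 fell. Protein-coding genes gave 681 upregulated and 440 downregulated of 12375 tested. Long non-coding RNAs (lncRNAs) gave 57 up and 130 down of 1772. Of 103 small nucleolar and Cajal body RNAs, which guide chemical modification of other RNAs, 0 rose and 13 fell, and their median log2 fold change was -0.38. A list of small nucleolar RNA host genes, chosen by symbol (SNHG genes among them) and not matched to these 103 RNAs, had 26 tested members. The listed genes had 0 calls in either direction by edgeR, with 9 at an unadjusted p under 0.05, and 0 calls by DESeq2.

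The gene with the smallest adjusted p was AKNA, an AT-hook protein of the centrosome, with 14.99 and 15.1 CPM in control medium and 92.6 and 91.6 CPM in E8-cSGcm (log2 fold change 2.61, SE 0.076, adjusted p = 5.21e-25). NIBAN1, a stress-induced regulator of translation, rose from 1.07 and 1.32 to 11.9 and 14.8 CPM (log2 fold change 3.47, SE 0.20, adjusted p = 3.39e-16). SH3KBP1, an adaptor of receptor endocytosis, rose from 2.14 and 1.71 to 15.8 and 15.8 CPM (log2 fold change 3.04, SE 0.18, adjusted p = 2.08e-16). In all 3 genes the libraries of a group lay close together and the groups did not overlap. INHBE, the inhibin beta E subunit, a TGF-beta family ligand, rose from 6.19 and 6.18 to 32.5 and 36.1 CPM (log2 fold change 2.47, SE 0.12, adjusted p = 3.63e-19). CREB3L1, a membrane-bound transcription factor of the endoplasmic reticulum (ER), rose from 2.22 and 2.56 to 13.1 and 10.2 CPM (log2 fold change 2.26, SE 0.20, adjusted p = 2.68e-11). The extracellular protease inhibitor SERPINE2 and the basement membrane components LAMC1 and NID1 also rose, with log2 fold changes of 2.14, 1.73 and 1.52. PCK2, the mitochondrial phosphoenolpyruvate carboxykinase, rose from 71.6 and 55.96 to 222 and 232 CPM (log2 fold change 1.84, SE 0.081, adjusted p = 8.85e-12).

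On the other side, DRGX, a homeobox factor known from dorsal root ganglion neurons, had 44.96 and 37.9 CPM in control medium and 4.65 and 5.18 CPM in E8-cSGcm (log2 fold change -3.06, SE 0.12, adjusted p = 5.76e-21). This was the lowest log2 fold change among protein-coding genes with a mean of at least 5 CPM. The next were RD3, CYB561 and CACNG4, an auxiliary subunit of calcium channels and AMPA receptors, at -1.999, -1.84 and -1.71. SFPQ, a splicing factor and paraspeckle protein, fell from 1107 and 1138 to 419 and 435 CPM (log2 fold change -1.39, SE 0.048, adjusted p = 5.54e-23). CYGB, a globin of many tissues, and PPP1R16B, a targeting subunit of protein phosphatase 1, also fell, with log2 fold changes of -1.15 and -1.22. AMPD3, an AMP deaminase, fell from 19.3 and 18.7 to 6.41 and 5.74 CPM (log2 fold change -1.65, SE 0.13, adjusted p = 2.02e-12). In DRGX, SFPQ and AMPD3 both E8-cSGcm libraries lay below both control libraries.

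Grouped by function, the list with the highest share of members called upwards, among lists with at least 9 tested, was that of enzymes that make amino acids. Of 17 tested members, 10 rose and 0 fell, and the median log2 fold change was 0.61, against 0.010 over all genes. Over the alternatives, 8 to 10 were called. ASS1, which joins citrulline and aspartate on the way to arginine, had 67.8 and 59.6 CPM in control medium and 226 and 271 CPM in E8-cSGcm (log2 fold change 1.97, SE 0.080, adjusted p = 2.31e-12). The next enzyme of that route, ASL, rose less (log2 fold change 0.61, SE 0.12, adjusted p = 1.54e-04), and a correction for GC content and length took it to 0.57, below the fold criterion, as did leaving out control library 2. ASNS, which makes asparagine, had 3.29 and 4.47 CPM in control medium and 10.8 and 12.2 CPM in E8-cSGcm (log2 fold change 1.56, SE 0.17, adjusted p = 2.35e-09). All 3 steps from glycolysis to serine rose, PHGDH (log2 fold change 1.19, SE 0.058, adjusted p = 1.56e-18), PSAT1 (log2 fold change 0.66, SE 0.054, adjusted p = 3.80e-12) and PSPH (log2 fold change 0.79, SE 0.063, adjusted p = 1.58e-12). PHGDH, the first step, went from 121 and 108 to 255 and 266 CPM. CTH, which makes cysteine from cystathionine, GPT2, which makes alanine, and GOT1, a cytosolic aspartate aminotransferase, rose by 1.04, 0.81 and 0.64 on the log2 scale. PYCR1, of proline synthesis, passed at 0.60 and was at 0.50 after the same correction, 0.51 without control library 2 and 0.54 without E8-cSGcm library 2. GLUL, which makes glutamine, did not pass, with -0.15. ASS1 has several processed pseudogenes, and ASS1P3, ASS1P11 and ASS1P13 were the called non-coding genes with the highest log2 fold changes at a mean of 5 CPM or more, at 2.42, 2.16 and 1.85. Reads shared between them and ASS1 make the pseudogene values uncertain.

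The serine made by that route feeds the folate cycle. SHMT2, the mitochondrial enzyme that passes serine carbon to folate, had 189 and 176 CPM in control medium and 465 and 499 CPM in E8-cSGcm (log2 fold change 1.40, SE 0.051, adjusted p = 2.26e-22). ALDH1L2 and MTHFD1L, later mitochondrial steps, rose by 0.99 and 0.64, and MTHFD2 reached 0.52 (adjusted p = 3.62e-10), short of the fold criterion. The 3 called members are mitochondrial, whereas MTHFD1 and TYMS of the cytosol and nucleus stood at -0.026 and -0.15. In all, 3 of 9 tested folate enzymes rose and 0 fell.

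Enzymes that load amino acids onto tRNA work in the cytosol, in mitochondria or in both. Of 19 tested cytosolic aminoacyl-tRNA synthetases, 5 rose and 0 fell, with 16 of 19 above 0 and a median of 0.27. Of 15 mitochondrial ones, 0 were called by edgeR or by DESeq2, with 6 at an unadjusted p under 0.05, and the median was 0.042. WARS1, for tryptophan, had 155 and 158 CPM in control medium and 424 and 448 CPM in E8-cSGcm (log2 fold change 1.48, SE 0.052, adjusted p = 7.75e-23). SARS1, for serine, had 154 and 143 CPM in control medium and 321 and 346 CPM in E8-cSGcm (log2 fold change 1.17, SE 0.052, adjusted p = 1.03e-19). MARS1 and GARS1 rose by 0.83 and 0.68. CARS1, for cysteine, rose on few reads from 3.36 and 2.50 to 4.25 and 6.79 CPM (log2 fold change 0.94, SE 0.24, adjusted p = 0.00198), and was not called without control library 2 (adjusted p = 0.0673) or without E8-cSGcm library 2 (adjusted p = 0.183). AARS1 stayed under the fold criterion at 0.55 (adjusted p = 2.70e-11), and KARS1 stood at -0.0025.

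Regulators and effectors of the integrated stress response came next. Of 21 tested, 7 rose and 2 fell, with 1 down without control library 1 or E8-cSGcm library 1. ATF4 RNA itself was not called, at 349 and 309.7 CPM in control medium and 299.8 and 332 CPM in E8-cSGcm (log2 fold change -0.057, SE 0.056, adjusted p = 0.486), and ATF4 is regulated mainly through its translation, which RNA-seq does not show. ATF5, a related factor, rose from 31.6 and 30.8 to 91.5 and 103 CPM (log2 fold change 1.64, SE 0.072, adjusted p = 7.97e-20). DDIT3, the factor CHOP, and TRIB3, a pseudokinase, rose by 1.01 and 1.11, with TRIB3 at 30.6 and 28.8 CPM in control medium and 56.4 and 71.2 CPM in E8-cSGcm. ATF3 and CHAC1, both also known as ATF4 targets, were lower. ATF3 fell from 29.1 and 24.7 to 13.7 and 16.3 CPM (log2 fold change -0.83, SE 0.11, adjusted p = 1.74e-07), and CHAC1, which degrades glutathione, fell from 35.6 and 28.8 to 18.8 and 22.2 CPM (log2 fold change -0.64, SE 0.10, adjusted p = 6.22e-06). CHAC1 did not reach the fold criterion without control library 1 (-0.48) or without E8-cSGcm library 1 (-0.53). For 2 secreted hormones of this response the control libraries were nearly empty. GDF15 had 0 and 2 counts in control medium and 47 and 60 in E8-cSGcm. Scaled to depth, the ratio of the summed counts was 56.6, with a 95% counting interval of 15.3 to 473. FGF21 had 0 and 0 counts against 7 and 6, at least 2.30-fold higher by a floor of 3 counts in each control library.

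**Figure D1:**
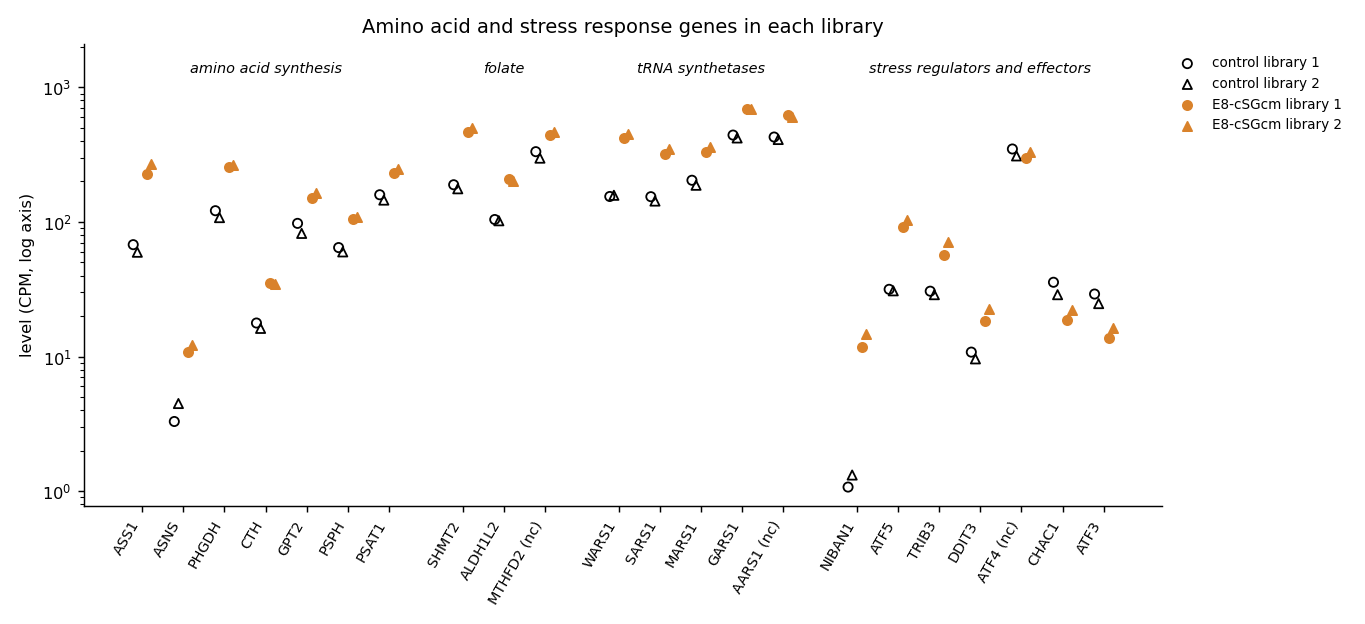
Level of 22 genes in each of the 4 libraries (CPM, log axis), with open symbols for control medium and filled symbols for E8-cSGcm; (nc) marks genes that were not called. Amino acid synthesis, folate and tRNA synthetase genes lie higher in both E8-cSGcm libraries, ATF4 overlaps between groups, and CHAC1 and ATF3 lie lower.

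ATF4 binds DNA as a dimer at CCAAT-enhancer-binding protein and ATF response elements, whose core is written here as TGATGNAA. Promoter sequences, from 250 bases before to 50 after the gene start, were taken from RefSeq on GRCh38.p14 for 20 of the 25 members of the synthesis, folate, cytosolic synthetase and stress response lists that rose. The core was found on either strand in 6 of these 20 (30%), in 17 of the 563 called-up genes with a promoter in the table (3.02%), in 181 of the 10812 tested genes with one (1.67%) and in 1003 of all 27305 promoters (3.67%). The table held a promoter for 10812 of the 16680 tested genes. Of 39 members of the same lists that were not called, 31 had a promoter in the table and 6 of them (19.4%) held the core. Uncalled members thus also held it more often than tested genes at large (1.67%). Whether the core is more frequent in the members that rose than in the uncalled ones was not tested. The match is a description of the letters and not a test of binding. One promoter of each role is shown, for an effector, a synthesis enzyme, a synthetase and a folate enzyme that rose, 5′ to 3′, with the core in capitals.
FGF21 (chr19:48755274-48755573, plus strand): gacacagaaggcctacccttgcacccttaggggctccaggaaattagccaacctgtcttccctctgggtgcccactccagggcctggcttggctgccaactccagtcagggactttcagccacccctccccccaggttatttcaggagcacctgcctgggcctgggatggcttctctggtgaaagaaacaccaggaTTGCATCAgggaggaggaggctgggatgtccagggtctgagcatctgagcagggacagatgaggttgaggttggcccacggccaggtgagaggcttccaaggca
ASNS (chr7:97872359-97872658, minus strand): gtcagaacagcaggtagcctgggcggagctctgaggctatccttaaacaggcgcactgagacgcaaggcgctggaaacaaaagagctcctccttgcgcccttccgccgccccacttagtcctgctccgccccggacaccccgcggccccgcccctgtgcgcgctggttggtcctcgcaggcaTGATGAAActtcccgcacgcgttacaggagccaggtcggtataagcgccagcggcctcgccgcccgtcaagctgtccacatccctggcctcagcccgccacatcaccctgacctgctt
MARS1 (chr12:57487818-57488117, plus strand): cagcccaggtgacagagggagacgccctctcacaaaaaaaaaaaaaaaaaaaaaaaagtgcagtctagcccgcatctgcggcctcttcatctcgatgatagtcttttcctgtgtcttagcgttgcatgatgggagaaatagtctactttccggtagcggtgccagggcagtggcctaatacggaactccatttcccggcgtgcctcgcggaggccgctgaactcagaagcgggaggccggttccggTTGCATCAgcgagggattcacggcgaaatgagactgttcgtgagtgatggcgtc
MTHFD1L (chr6:150866236-150866535, plus strand): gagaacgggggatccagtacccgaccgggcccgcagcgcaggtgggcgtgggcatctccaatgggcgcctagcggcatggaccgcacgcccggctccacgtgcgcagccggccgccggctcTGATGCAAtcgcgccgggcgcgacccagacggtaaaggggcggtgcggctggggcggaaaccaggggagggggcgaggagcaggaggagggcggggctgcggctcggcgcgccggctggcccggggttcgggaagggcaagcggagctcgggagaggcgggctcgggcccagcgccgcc
The ASNS core starts 68 bases before the gene start and reads on the gene's strand, and that of FGF21 starts 54 bases before it on the opposite strand. In MARS1 the core overlaps the annotated start, and in MTHFD1L it starts 129 bases before it. CARS1 and GOT1 also held a core. ASNS, MARS1 and MTHFD1L rose by 1.56, 0.83 and 0.64 on the log2 scale.

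Amino acids enter the cell through solute carriers. Of 18 tested amino acid transporters, 4 rose and 1 fell. SLC7A5, which imports large neutral amino acids, rose from 119 and 115 to 181 and 176 CPM (log2 fold change 0.61, SE 0.055, adjusted p = 4.39e-11), with 0.55 after correction for GC content and length and 0.58 without control library 2, both below the fold criterion. SLC43A1 rose by 0.66 and the glutamate transporter SLC1A3 by 1.000. SLC7A3, a cationic amino acid transporter, had 0 and 2 counts in control medium and 8 and 28 in E8-cSGcm, a ratio of 19.03 (95% counting interval 4.90 to 163), most of its reads coming from the second E8-cSGcm library. SLC7A11, the cystine importer, reached 0.21 (adjusted p = 0.0207), and SLC38A1 and SLC7A1, at -0.51 and -0.47, did not pass the fold criterion. SLC6A9, a glycine transporter, fell (log2 fold change -0.60, SE 0.14, adjusted p = 9.27e-04), and was at -0.54 without control library 2.

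Other stress programs were examined by the same lists. Among 19 NRF2 targets 4 rose and 0 fell. HMOX1, heme oxygenase, rose from 2.29 and 1.97 to 5.93 and 5.81 CPM (log2 fold change 1.46, SE 0.23, adjusted p = 3.05e-06). NQO1, a quinone reductase, rose by 0.73, with 100.4 and 101 CPM in control medium and 160.3 and 175 CPM in E8-cSGcm. OSGIN1 rose on few reads (log2 fold change 2.43, SE 0.56, adjusted p = 9.15e-04), and was not called without control library 2 (adjusted p = 0.0632). Of 22 ER chaperone and unfolded protein response genes, 2 rose, the stress sensor ERN1 at 0.90 and the degradation factor EDEM1 at 0.84. The chaperone HSPA5 stayed under the fold criterion, at 910.5 and 969 CPM in control medium and 1425 and 1301 CPM in E8-cSGcm (log2 fold change 0.54, SE 0.057, adjusted p = 1.72e-08). Of 16 heat shock genes 1 rose, DNAJB1, from 72.3 and 72.7 to 145 and 149 CPM (log2 fold change 1.02, SE 0.056, adjusted p = 6.88e-17), while HSPA8 and HSP90AA1 stood at 0.14 and -0.047. Metallothioneins and zinc response genes had 0 up and 3 down of 8, with a median of -0.70, but 1 down without control library 1, without E8-cSGcm library 2 or by DESeq2, which gave no adjusted p for the other two. The zinc exporter SLC30A1 fell from 54.7 and 61.3 to 37.1 and 37.4 CPM (log2 fold change -0.64, SE 0.076, adjusted p = 1.80e-08), and was at -0.55 without control library 2. MT1F had 9 and 2 counts in control medium and 0 in both E8-cSGcm libraries, at least 1.82-fold lower by the floor of 3 counts a library, and was not called without control library 1 (adjusted p = 0.211) or without E8-cSGcm library 2 (adjusted p = 0.0722). MT1X went from 2.14 and 1.78 to 1.12 and 0.42 CPM, and lost its call without the same libraries (adjusted p = 0.0757 and 0.236), and MT2A was not called (log2 fold change -0.44, SE 0.23, adjusted p = 0.151). Of 23 p53 targets, 1 rose and 2 fell (2 and 1 without control library 1), with TNFRSF10B, a death receptor, at 0.70 and TP53INP1 at -0.72. A gene of autophagosome formation, GABARAPL1, rose (log2 fold change 1.60, SE 0.21, adjusted p = 1.17e-07) as the 1 call among 29 lysosome and autophagy genes, of which 2 were up without control library 2 or E8-cSGcm library 1.

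The 13 proteins encoded by mitochondrial DNA are subunits of respiratory complexes, read from long precursor RNAs. Of their transcripts 0 rose and 6 fell, with a median log2 fold change of -0.80. MT-CYB, of complex III, had 886 and 1149 CPM in control medium and 428 and 372 CPM in E8-cSGcm (log2 fold change -1.35, SE 0.18, adjusted p = 0.00671). MT-ND2 and MT-ND3, of complex I, fell with log2 fold changes of -1.24 and -1.09, with MT-ND3 at 185 and 202 CPM in control medium and 96.3 and 85.8 CPM in E8-cSGcm. MT-ATP8 and MT-ATP6, whose reading frames overlap on 1 RNA, fell with -0.97 (adjusted p = 0.0241) and -0.89 (adjusted p = 0.0328), and MT-CO3 with -0.81 (adjusted p = 0.0225). By contrast MT-CO1, MT-ND4 and MT-ND5, the 3 most abundant of these transcripts, had overlapping groups and log2 fold changes of -0.057, -0.036 and -0.096. SEs ran from 0.11 for MT-ND3 to 0.27 for MT-ND4. The summed level of the 13 was 17908 and 23408 CPM in control medium and 18773 and 15127 CPM in E8-cSGcm, so the sums overlapped. Without E8-cSGcm library 1 there were 2 calls and without E8-cSGcm library 2 there was 1, and the other alternatives gave 3 to 7. MTND2P28, a nuclear copy of the MT-ND2 region with which it can share reads, also fell (log2 fold change -1.31, SE 0.10, adjusted p = 8.61e-10). Of nuclear genes for respiratory chain subunits, 0 of 75 were called in either direction by edgeR or DESeq2, with 28 at an unadjusted p under 0.05 and a median of 0.088.

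**Figure D2:**
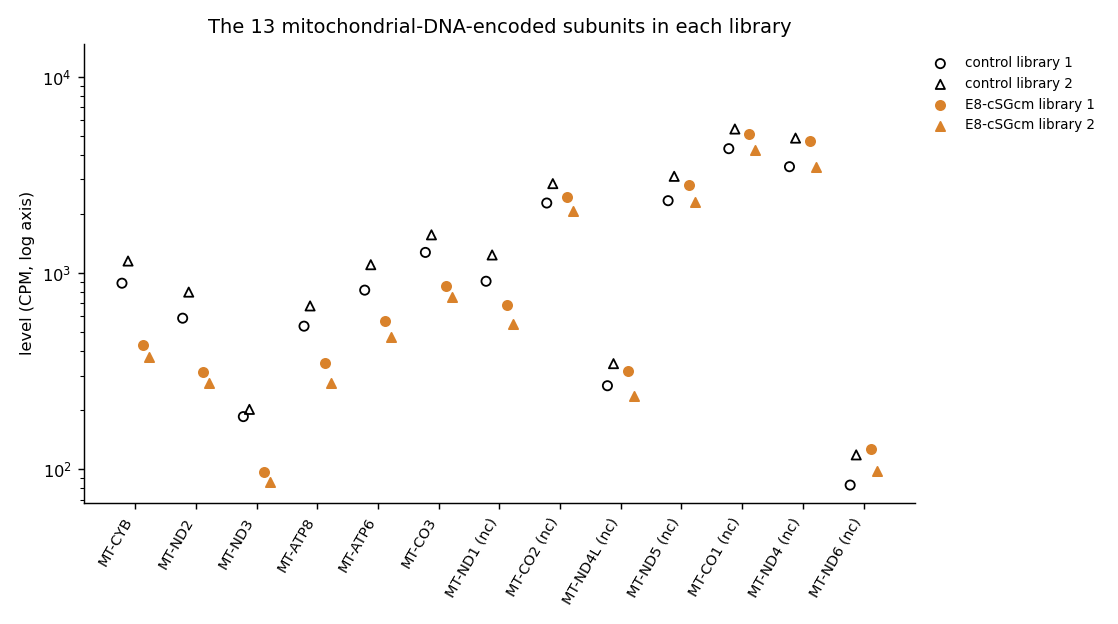
Level of the 13 mitochondrial-DNA-encoded subunits in each of the 4 libraries (CPM, log axis), ordered by log2 fold change, with open symbols for control medium, filled symbols for E8-cSGcm and (nc) for genes not called. MT-CYB, MT-ND2 and MT-ND3 lie lower in both E8-cSGcm libraries, and the groups overlap for MT-CO1, MT-ND4 and MT-ND5.

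Lipid synthesis and export were also examined. Of 11 fatty acid synthesis genes 0 rose and 3 fell, the desaturases FADS2 and FADS1 and the elongase ELOVL6, with FADS2 at 424 and 409 CPM in control medium and 244 and 253 CPM in E8-cSGcm (log2 fold change -0.74, SE 0.048, adjusted p = 4.62e-15) and the others at -0.62 and -0.70. SCD, which makes oleate, stood at -0.27 (adjusted p = 3.07e-05), short of the fold criterion. Of 24 sterol genes 1 fell, LSS, at -0.75, and HMGCS1, of sterol synthesis, had -0.19. The cholesterol exporter ABCA1 fell from 82.3 and 87.1 to 42.01 and 35.6 CPM (log2 fold change -1.13, SE 0.078, adjusted p = 7.98e-14), and MYLIP, a ubiquitin ligase induced by LXR, rose by 1.17. None of 19 glycolysis genes passed by edgeR or DESeq2, with 10 at an unadjusted p under 0.05, and GAPDH and LDHA stood at 0.099 and -0.056. Of 20 hypoxia genes 3 rose and 1 fell, with EGLN3, an oxygen sensor, at 0.91, while VEGFA, not called, had 40.5 and 41.2 CPM in control medium and 42.3 and 41.5 CPM in E8-cSGcm.

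Genes of growth and division gave few calls. Of 42 replication genes and 36 mitosis genes, 0 were called by edgeR, with 16 and 22 at an unadjusted p under 0.05, and DESeq2 called 1 mitosis gene. MCM2 and MCM7 stood at 0.040 and 0.027, and TPX2 at 0.32. Cyclin D1 was an exception. CCND1, which starts the cell cycle with CDK4 and CDK6, had 1404 and 1429.6 CPM in control medium and 564 and 573 CPM in E8-cSGcm (log2 fold change -1.32, SE 0.048, adjusted p = 2.26e-22), and the inhibitor CDKN2D rose by 1.04 from a low level. MYCN, the amplified driver of many NB lines, went from 4679 and 4609.9 to 3308 and 3496 CPM (log2 fold change -0.45, SE 0.049, adjusted p = 2.56e-09), short of the fold criterion. Of 53 replication-dependent histone genes 0 rose and 2 fell, against 1 down without E8-cSGcm library 1 and 4 without E8-cSGcm library 2. Cytosolic ribosomal protein genes had 68 of 74 log2 fold changes above 0, a median of 0.14 and 1 call, RPS27. Mitochondrial ribosomal proteins, ribosome biogenesis factors and proteasome subunits had 0 calls of 74, 25 and 31 by edgeR and DESeq2, with 23, 8 and 15 at an unadjusted p under 0.05. In the BCL2 family of cell death genes, BMF rose by 0.73 as the 1 call of 13.

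Among signalling pathways, the list of ERK feedback and output genes had more calls downwards than upwards. Of 15 tested, 5 fell and 1 rose, and the median was -0.38. SPRY2, a feedback inhibitor of receptor tyrosine kinases, fell from 107 and 101 to 47.9 and 49.99 CPM (log2 fold change -1.09, SE 0.064, adjusted p = 3.86e-16). Its relative SPRY4 fell from 247 and 252 to 128 and 131 CPM (log2 fold change -0.95, SE 0.053, adjusted p = 7.65e-17). DUSP6, the ERK phosphatase, and ETV1, an ETS factor, fell with log2 fold changes of -0.71 and -0.67. EPHA2 rose by 0.60, which a correction for GC content and length took to 0.55, below the fold criterion, and which was 0.53 without control library 1 and 0.43 without E8-cSGcm library 2. ETV5 and DUSP4 were not called, at -0.0022 and -0.38. Of 22 immediate early genes 3 rose and 2 fell, and 1 rose without E8-cSGcm library 1, where CCN1 (adjusted p = 0.130) and ZFP36 (log2 fold change 0.55) lost their calls. EGR1 fell from 9.10 and 7.04 to 4.01 and 3.78 CPM (log2 fold change -1.04, SE 0.19, adjusted p = 4.34e-05) and ARC had -0.64, while NR4A3 rose from 1.68 and 1.38 to 4.49 and 4.55 CPM (log2 fold change 1.57, SE 0.26, adjusted p = 1.38e-05) and FOS did not pass (log2 fold change 0.38, SE 0.32, adjusted p = 0.399).

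YAP and TAZ, co-activators of TEAD factors that respond to cell density and stretch, were represented by 12 tested genes, of which 5 rose and 0 fell (median 0.57). WWTR1, the gene for TAZ, had 10.9 and 12.03 CPM in control medium and 27.2 and 20.4 CPM in E8-cSGcm (log2 fold change 1.04, SE 0.12, adjusted p = 1.66e-08) and PTPN14 rose by 0.88. AJUBA and TEAD4 were not called by DESeq2 (adjusted p = 0.0772 and 0.126), which gave no adjusted p for CCN1, and each of the 3 lost its call without at least 1 library, TEAD4 for example without control library 2 (adjusted p = 0.223). The list had 2 calls without control library 2 and 3 without E8-cSGcm library 2. Of 15 BMP and TGF-beta response genes 3 rose and 0 fell, TGFBI by 0.93, SMAD6 by 0.77 and ID1 by 0.68 (0.50 without E8-cSGcm library 1). Of 16 retinoic acid genes 3 rose and 1 fell. DHRS3, which turns retinal back to retinol, rose from 2.91 and 3.29 to 9.22 and 9.38 CPM (log2 fold change 1.58, SE 0.19, adjusted p = 2.23e-08), the retinol receptor STRA6 rose by 0.80, and ALDH1A3, which makes retinoic acid, fell with -0.92. SOCS3, a feedback inhibitor of gp130 cytokine receptors, rose from 0.765 and 0.46 to 2.49 and 2.03 CPM, without an adjusted p from DESeq2, and the other two gp130 pathway genes called by edgeR, SOCS2 and IL6R, were not called by DESeq2 (adjusted p = 0.156 and 0.0983), with 1 of the 3 called without control library 2. NF-kB genes showed 3 up and 2 down of 20, and 1 down without control library 2 or without either E8-cSGcm library, with NFKB2 at 0.91, NFKB1 at -0.62 (-0.58 without control library 2 and -0.51 without E8-cSGcm library 1) and the inhibitor NFKBIA not called at -0.41. The Notch target HES1 was not called (log2 fold change -0.10, SE 0.13, adjusted p = 0.606). Of 15 Notch genes 2 rose and 1 fell by edgeR. NRARP was among those that rose, without an adjusted p from DESeq2 (log2 fold change 2.01 there). TCF7, a Wnt effector, fell with -0.77. Of 18 clock genes 3 rose and 1 fell, and 0 fell without either control library or E8-cSGcm library 1, with NFIL3 at 0.94 and RORA at 0.80.

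Sympathetic cells store noradrenaline and peptides in vesicles, and the genes for either were listed separately. Of 12 tested genes for catecholamine synthesis, storage and uptake, 0 rose and 6 fell, with a median of -0.55. CYB561, which supplies electrons for noradrenaline synthesis inside vesicles, had 140.3 and 138 CPM in control medium and 37.4 and 40.1 CPM in E8-cSGcm (log2 fold change -1.84, SE 0.071, adjusted p = 1.34e-21). DBH, which makes noradrenaline, had 37.8 and 37.2 CPM in control medium and 17.7 and 16.9 CPM in E8-cSGcm (log2 fold change -1.11, SE 0.095, adjusted p = 8.24e-12). SLC6A2, the noradrenaline transporter, had 149 and 155 CPM in control medium and 65.3 and 72.1 CPM in E8-cSGcm (log2 fold change -1.14, SE 0.064, adjusted p = 8.60e-17), and the vesicular transporter SLC18A1 fell with -1.05. PTS and SPR, of the cofactor tetrahydrobiopterin, fell with -0.78 and -0.59, and SPR was not called by DESeq2 (adjusted p = 0.126), without control library 2 (adjusted p = 0.207) or without E8-cSGcm library 1 (adjusted p = 0.137). TH, the first enzyme of the route, was not called, with 8.87 and 9.07 CPM in control medium and 8.26 and 8.40 CPM in E8-cSGcm. DDC and GCH1 did not reach the fold criterion, at -0.51 and -0.37. Of 13 granin, peptide and processing genes, 4 rose and 0 fell. Neuropeptide Y, NPY, had 9.02 and 11.05 CPM in control medium and 25.3 and 24.6 CPM in E8-cSGcm (log2 fold change 1.30, SE 0.11, adjusted p = 7.89e-12). VGF, a secreted granin-like precursor, had 812 and 827 CPM in control medium and 1665 and 1563 CPM in E8-cSGcm (log2 fold change 0.98, SE 0.051, adjusted p = 1.21e-17). VIP and the convertase PCSK1 rose by 0.88 and 0.84. The abundant granins CHGB and SCG2 were not called, at 0.030 and 0.056.

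Of the lineage factors, GATA2 had 749 and 770.3 CPM in control medium and 290.4 and 298 CPM in E8-cSGcm (log2 fold change -1.37, SE 0.047, adjusted p = 5.86e-23), while PHOX2A stood at -0.52 (adjusted p = 3.50e-09) and HAND2 at -0.042 (adjusted p = 0.566). The summed level of the noradrenergic NB marker list was 7457 to 7586 CPM in control medium and 5466 to 5787 CPM in E8-cSGcm, much of it MYCN. Of the sensory neuron list, 3 of 5 tested members were lower and 1 was higher, and the list, mostly DRGX, summed to 46.8 to 52.7 CPM in control medium and 13.1 to 15.1 CPM in E8-cSGcm, with POU4F1 and PRDM12 under 10 counts in every library. RUNX3 and AVIL fell on few reads and lost the call without E8-cSGcm library 1 (RUNX3, adjusted p = 0.234) or 2 (AVIL, adjusted p = 0.0703), and RUNX3 also without either control library (adjusted p = 0.0830 and 0.0520). The part of cell composition in these values was not tested.

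**Figure D3:**
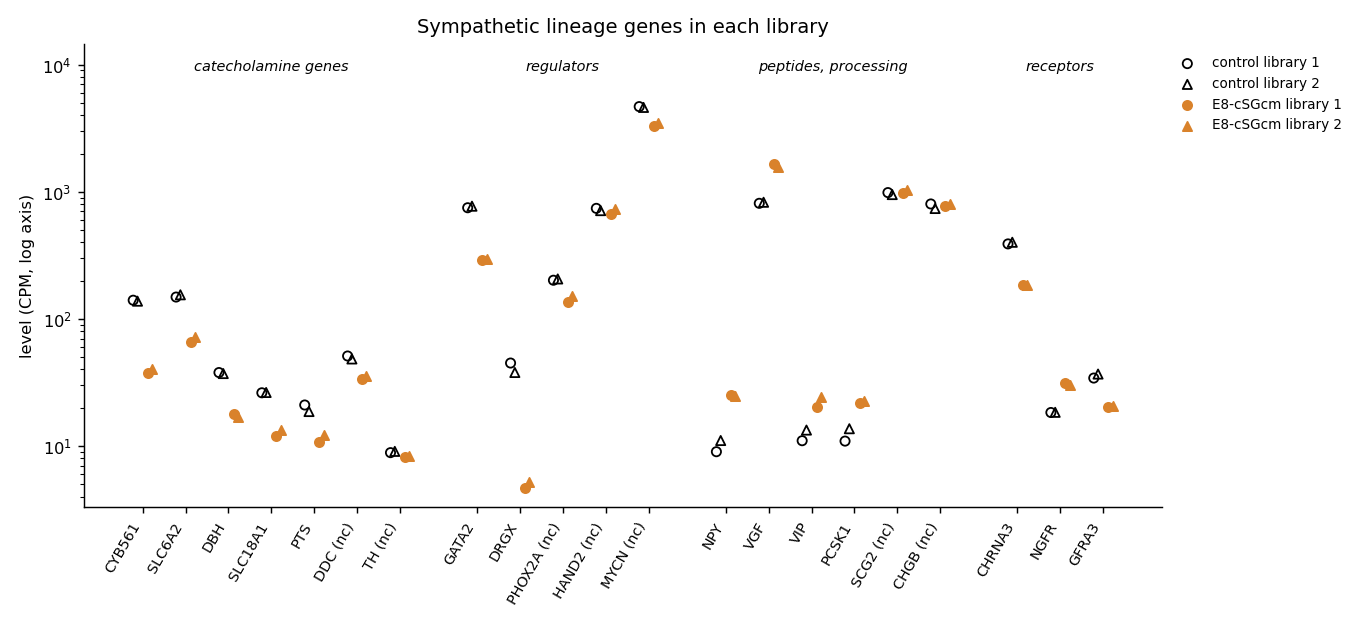
Level of 21 sympathetic lineage genes in each of the 4 libraries (CPM, log axis), open symbols for control medium and filled symbols for E8-cSGcm, with (nc) for genes not called. CYB561, GATA2, DRGX and CHRNA3 lie lower and NPY, VGF, VIP and PCSK1 higher in both E8-cSGcm libraries, and TH, SCG2 and CHGB lie close together.

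Receptors and channels of the neuronal surface changed in both directions. CHRNA3, the nicotinic subunit of ganglionic synapses, had 389 and 401 CPM in control medium and 186 and 186 CPM in E8-cSGcm (log2 fold change -1.09, SE 0.049, adjusted p = 1.22e-19), the most abundant of 43 tested neurotransmitter receptor genes to be called, of which 4 rose and 6 fell. The other called members were below 12 CPM, and DESeq2 called 0 up and 4 down, with no adjusted p for 5 of the 10, and without control library 2 the number that rose was 2. Of 66 channel genes 10 rose and 5 fell, and DESeq2 called 5 and 3, with no adjusted p for 4 of the 15. KCNC2, a fast potassium channel, rose from 0.688 and 0.986 to 4.73 and 3.71 CPM (log2 fold change 2.29, SE 0.31, adjusted p = 2.02e-07), and KCNJ6, a G-protein-gated potassium channel, fell from 5.20 and 5.26 to 1.04 and 1.61 CPM (log2 fold change -1.95, SE 0.26, adjusted p = 2.55e-07). Of 14 genes for neurotrophin, GDNF and ALK signalling 3 rose and 1 fell. NGFR, a low-affinity receptor of neurotrophins, rose from 18.4 and 18.4 to 31.4 and 30.4 CPM (log2 fold change 0.75, SE 0.095, adjusted p = 7.68e-08), and the artemin receptor GFRA3 fell with -0.81. Of 56 axon guidance genes 12 rose and 0 fell, and DESeq2 called 9. EPHA4 and EFNA4, an ephrin receptor and a ligand, both rose by 1.48, with EFNA4 going from 2.37 and 3.02 to 7.38 and 7.77 CPM. EPHA6, another ephrin receptor, rose from 11.5 and 11.2 to 23.7 and 24.9 CPM (log2 fold change 1.10, SE 0.11, adjusted p = 4.02e-10), and the semaphorin SEMA5B rose by 0.98. The neurofilament subunit NEFM, at 579 and 567 CPM in control medium and 939 and 937 CPM in E8-cSGcm (log2 fold change 0.71, SE 0.049, adjusted p = 3.84e-14), and the growth cone protein GAP43, by 0.66, rose, and the tubulin regulator STMN3 fell with -0.76. Matrix-degrading enzymes were mixed, with 3 up and 2 down of 32, among them MMP15 at 0.78 and the inhibitor TIMP3 at -2.01 on few reads.

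The remaining lists gave between 0 and 3 calls in a direction. Of 16 purine and pyrimidine synthesis genes 1 fell, PFAS, with a log2 fold change of -0.69. Of 21 interferon-stimulated genes 1 fell, SAMD9, and of 6 genes for MHC class I presentation 1 rose. The MYC network gave 1 up and 1 down of 12, Notch genes 2 up and 1 down of 15, Wnt genes 0 up and 2 down of 11, and immunoglobulin-family adhesion molecules 3 up and 1 down of 21. Upwards there were 2 of 13 insulin and FOXO genes, 2 of 16 HOX genes, 1 of 19 actin genes under SRF and 1 of 9 mitochondrial chaperones and proteases, with 0 downwards in each, and 0 HOX genes were called by DESeq2, without control library 1 or without E8-cSGcm library 1. Leaving out 1 library moved other small counts too. The adhesion molecules that rose went to 1 without E8-cSGcm library 2, and the insulin and FOXO genes to 1 without either control library or E8-cSGcm library 1. Notch genes had 0 down without control library 2 or either E8-cSGcm library, and Wnt genes 1 down without control library 1 or either E8-cSGcm library. MHC genes had 0 up without control library 1 or E8-cSGcm library 2, and the MYC network 0 up without control library 2. Iron handling genes, arrestin-domain genes and replacement histones had 0 calls of 8, 5 and 9 by edgeR and by DESeq2, with 4, 1 and 7 at an unadjusted p under 0.05.

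Of the lncRNAs named in the lists, MALAT1, a nuclear speckle RNA, rose from 4454 and 5570.1 to 8594 and 7247 CPM (log2 fold change 0.66, SE 0.13, adjusted p = 0.0145) and MEG3, an imprinted RNA, fell from 75.1 and 85.3 to 49.6 and 43.3 CPM (log2 fold change -0.79, SE 0.075, adjusted p = 1.68e-10). MALAT1 was not called when only the 4 compared libraries were fitted (adjusted p = 0.136), nor at the fold criterion without control library 1 (0.51) or E8-cSGcm library 1 (0.54). NEAT1, the paraspeckle scaffold, had groups that overlapped, at 223 and 289 CPM in control medium and 299 and 214 CPM in E8-cSGcm. LINC01441 had the lowest log2 fold change of the called non-coding genes with a mean of at least 5 CPM, with 41.1 and 43.5 CPM in control medium and 13.7 and 16.7 CPM in E8-cSGcm (log2 fold change -1.47, SE 0.099, adjusted p = 1.59e-14).

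Whether these values are shared by other ganglion media was tested gene by gene as a difference between media, in which the control libraries cancel. E8-cSGcm differed from E8-cDRGcm in 1249 transcripts (7.49%) and from E15.5-mSGcm in 3727 (22.3%). Of the 789 transcripts upregulated in E8-cSGcm, 53 were higher in E8-cSGcm than in E8-cDRGcm and 104 were lower. Of the 644 downregulated, 16 were lower than in E8-cDRGcm and 136 were higher. Against E15.5-mSGcm, 504 of the upregulated transcripts were higher and 28 lower, and 361 of the downregulated were lower and 12 higher. These counts share the E8-cSGcm libraries with the comparison that chose the transcripts, so that choice itself moves them away from the background share.

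For amino acid and stress response genes the order of media depended on the gene, but most called differences from E8-cDRGcm were downwards. Of 21 stress response genes, 0 were higher in E8-cSGcm than in E8-cDRGcm and 7 were lower. Relative to control, the median of that list (log2) was 0.13 with E8-cSGcm and 0.72 with E8-cDRGcm. Cytosolic synthetases had 0 of 19 higher and 2 lower, and transporters 0 of 18 and 2. Synthesis enzymes had 1 of 17 higher and 3 lower, and folate enzymes 1 of 9 and 0. ASS1 was higher in E8-cSGcm than in E8-cDRGcm, a log2 difference of 0.71 (adjusted p = 1.02e-06), and SHMT2 by 0.27 (adjusted p = 4.15e-05), under the fold criterion. ASNS, TRIB3 and CTH were lower in E8-cSGcm than in E8-cDRGcm, with log2 differences of -1.26 (adjusted p = 1.75e-10), -1.38 (adjusted p = 2.25e-11) and -0.72 (adjusted p = 6.02e-09). PHGDH differed by 0.014 (adjusted p = 0.88). Against E15.5-mSGcm, 10 of 17 synthesis enzymes were higher in E8-cSGcm and 1 was lower, and ASNS differed by 2.25 (adjusted p = 5.07e-11), PCK2 by 2.90 (adjusted p = 4.49e-14) and WARS1 by 0.82 (adjusted p = 6.63e-16). Of 22 ER chaperone and unfolded protein response genes, 8 were higher in E8-cSGcm than in E8-cDRGcm and 2 were lower. HSPA5 differed by 1.36 (adjusted p = 1.21e-16) and PDIA4 by 1.41 (adjusted p = 1.07e-21), and against control medium HSPA5 had 0.54 in E8-cSGcm, -0.82 in E8-cDRGcm and 0.53 in E15.5-mSGcm.

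Of 12 catecholamine genes, 6 were higher in E8-cSGcm than in E8-cDRGcm and 0 were lower. DBH differed by 0.85 (adjusted p = 8.24e-07) and SLC6A2 by 1.09 (adjusted p = 8.91e-14). VGF was lower in E8-cSGcm than in E8-cDRGcm, with a log2 difference of -1.89 (adjusted p = 5.82e-26). Against E15.5-mSGcm, mitochondrial-DNA-encoded subunits were lower in 9 of 13 and higher in 0, with MT-CYB at -2.29 (adjusted p = 5.75e-04). Replication-dependent histones were higher in E8-cSGcm in 48 of 53 and lower in 1, and NF-kB genes were lower in 16 of 20, with NFKBIA at -3.22 (adjusted p = 8.05e-29). Against control medium, the median log2 fold changes of the histones were -0.076 in E8-cSGcm and -2.35 in E15.5-mSGcm. Those of the NF-kB genes were 0.056 and 1.98, and those of the mitochondrial-DNA-encoded subunits -0.80 and 0.69.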

How the data were processed

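Libraries were made from 50 ng of RNA with 75 bp reads. According to the submitters' processing notes, bcl2fastq 2.17.1.14, cutadapt 1.9.1, TopHat2 2.1.0 and HTSeq 0.11.3 were used, and the authors deposited whole-number read counts per gene, not normalized, in 1 table of 8 libraries. The notes name GRCh38 and the methods hg19, so no gene coordinate was taken from either, and 58611 of 60676 Ensembl identifiers matched a symbol.

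From the deposited counts, genes were filtered by expression in the groups, scaled by TMM and fitted over all 8 libraries with edgeR 4.0.16 (R 4.3.3, quasi-likelihood, robust, Benjamini-Hochberg over all tested genes, two-sided). Calls required a change of 1.5-fold or more with the adjusted p under 0.05. Alternatives were DESeq2 1.42.0, other size factors and filters, a GC and length correction, a replicate block, a fit of only the libraries compared, and leaving out each library. DESeq2 gave no adjusted p for some low genes, which were kept as missing. The code was tested on simulated data. CPM use TMM-scaled library sizes, and counting intervals cover counting error only.

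The members and the 67 gene lists were chosen with earlier results of these data known. Named genes were the 12 highest and 12 lowest protein-coding log2 fold changes at a mean of at least 5 CPM, the 8 smallest adjusted p in each direction, up to 5 called and 4 uncalled members of each list, a fixed set of well known genes, the 4 highest and 4 lowest non-coding genes, and the 5 largest differences from each other medium. Called genes with the largest log2 fold changes on few counts were added in each direction. ASL, ATF3, EPHA2, GOT1, MT-CO3, PSPH, PYCR1 and SPR fell outside the rule and were chosen after their values were seen. Some list members are counted but not reported by name here. The labels give replicate numbers but no shared batch or day. Promoters came from RefSeq on GRCh38.p14, matched by symbol.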

Additional observations from a re-analysis of the deposited data

Results flagged for a closer look

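The results below were taken up because the change in E8-cSGcm differed from that in another ganglion medium by a test of the difference itself, in which the control libraries cancel. With 2 libraries a group, no group was large enough for a check of single libraries that stand apart. E8-cSGcm differed from E8-cDRGcm in 1249 transcripts and from E15.5-mSGcm in 3727.

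Against E8-cDRGcm, the log2 difference was 3.31 (adjusted p = 2.27e-08) for ACVRL1, an endothelial receptor of the TGF-beta family, 2.21 (adjusted p = 4.50e-07) for the kinase CAMK2A, 2.02 (adjusted p = 7.81e-13) for LINC01441, -1.89 (adjusted p = 5.82e-26) for VGF and 1.63 (adjusted p = 6.56e-07) for TMEM255A. These differences compare the media and do not give the direction against control medium. LINC01441 was lower in E8-cSGcm than in control medium, as given above, and lower still in E8-cDRGcm. For VGF the log2 fold changes against the shared control libraries were 0.98 in E8-cSGcm, 2.86 in E8-cDRGcm and 0.13 in E15.5-mSGcm. TMEM255A was not called in E8-cSGcm against control medium by DESeq2 (log2 fold change 0.79, adjusted p = 0.0832).

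Against E15.5-mSGcm, the log2 difference was -3.66 (adjusted p = 1.15e-23) for DRGX, 3.47 (adjusted p = 1.14e-19) for CORO1A, an actin-binding protein, -3.20 (adjusted p = 1.46e-24) for the myosin MYH15, 3.03 (adjusted p = 2.09e-12) for the calcium sensor HPCAL4 and -3.003 (adjusted p = 4.02e-24) for the matrix protein TNC. For DRGX the log2 fold changes against the shared control libraries were -3.06 in E8-cSGcm, -4.23 in E8-cDRGcm and 0.60 in E15.5-mSGcm. HPCAL4 was not called in E8-cSGcm against control medium by DESeq2 (log2 fold change 0.60, adjusted p = 0.0754). Without control library 1 its log2 fold change was 0.52, below the fold criterion.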

How the results depend on the processing

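The numbers of called transcripts moved by more than 1.5 times with the fold criterion and the tool only. With the adjusted p alone, 2679 transcripts were higher and 2534 lower in E8-cSGcm, 5037 differed from E8-cDRGcm and 8304 from E15.5-mSGcm. DESeq2 called 449 higher, 390 lower and 690 different from E8-cDRGcm, and the cause was not tested. Leaving out a library in turn gave 650 to 740 higher, 532 to 631 lower, 999 to 1281 different from E8-cDRGcm and 3232 to 3840 different from E15.5-mSGcm. The libraries left as the only one of their group were assumed to vary like the others. Of 199 called genes under the rule for named genes, 145 were called in every alternative that gave them a value, and over the alternatives 2179 values kept the call, 132 lost it and 0 changed sign. Over all 1433 called transcripts, 568 (307 higher, 261 lower) were called in all 12 alternative fits, and a transcript without a value in a fit counts here as not called.

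Libraries share replicate numbers across groups, but over all tested genes their deviations from the group means correlated at only -0.044 to 0.042. Over genes as a whole no pairing by number was seen. Counting noise enters these deviations, so the check cannot show whether some genes share a batch. With the replicate number as a block, 771 transcripts were called higher and 643 lower, 1233 differed from E8-cDRGcm and 3723 from E15.5-mSGcm.

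Depth and 2 libraries a group limit what can be seen. A further 15890 genes with reads were too low to test, and all values come from 1 cell line.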
